A study of Arabidopsis thaliana with 12 samples.

Results

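Described here are 6 genes of Arabidopsis thaliana that the steroid-treated inflorescence tips of this series expressed far above mock tips on day 7: AT3G11000, AT1G47610, AT1G02190, AT4G26280, AT5G47600 and AT3G19550. Each is read by 1 of the 22746 probe sets of the Affymetrix ATH1 array that are no controls, and all 6 probe sets were among the 16511 that passed the filter on dim signals. All were chosen by their day 7 difference, AT3G11000 by its day 1 and day 3 differences too, and AT3G19550 and AT1G47610 also by their difference averaged over the 3 days. Among probe sets with a single gene name whose day 7 arrays gave a call, ordered by the size of that difference, they stand at places 2, 3, 4, 6, 7 and 8. REM22 at place 1 and AT5G57720 at place 5 were left to one side. Just inside the list lay AT5G47600 at 4.23-fold, and just outside it AT1G73620 at 4.21-fold. These differences are therefore given as a description, without a test: day 7 for all 6 genes, and days 1 and 3 as well for AT3G11000, AT3G19550 and AT1G47610.

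All 12 samples came from plants homozygous for ap1-1 and cal-1 that express a fusion of AGAMOUS to the rat glucocorticoid receptor from the constitutive 35S promoter. Steroid tips received 10 µM dexamethasone with 0.1% ethanol and 0.015% Silwet L-77, and mock tips received the ethanol and Silwet alone. RNA was taken on days 1, 3 and 7, with 2 independent samples a group, so there were steroid and mock tips of day 1, of day 3 and of day 7. All groups carry the fusion, so effects of the steroid itself and of AGAMOUS cannot be told apart. Plant age is not given in the labels.

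AGAMOUS is the MADS-domain transcription factor that specifies stamens and carpels. In ap1 cal plants the shoot tip keeps producing meristems where flowers would form, and a receptor fusion of this kind stays inactive until the steroid binds it. The annotation used here lists the 6 genes by locus alone, without a symbol, so what follows on the kind of protein is background knowledge. AT3G11000 encodes a protein with a DCD domain, a plant domain named for development and cell death. AT1G47610 encodes a WD40-repeat protein, a fold that serves as a platform for binding other proteins. Enzyme families account for 2 of the genes: AT1G02190 belongs to the fatty acid hydroxylase superfamily and is a relative of CER1, which makes the alkanes of cuticular wax, and AT4G26280 belongs to the sulfotransferases, which place sulfonate groups on small molecules. AT5G47600 encodes a protein like the small heat shock proteins of the HSP20 family, which bind unfolded proteins. No kind of protein is given here for AT3G19550.

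The genes did not share one time course. Steroid arrays stood above all mock arrays of the same day for 3 of the 6 genes on day 1 (AT3G11000, AT3G19550 and AT1G47610), for 5 on day 3 (AT1G02190 and AT4G26280 as well) and for all 6 on day 7. On day 1 they stood below the mock arrays for 1 gene, AT1G02190. Over all tested probe sets, both steroid arrays lay above both mock arrays for 14.1% on day 1, 10.5% on day 3 and 22.4% on day 7, and below them for 17.1% on day 1. Nothing is read from these counts against the background: day 7 chose all 6 genes, and the 3 genes above mock on day 1, which are also among the 5 of day 3, were picked partly on those days. AT3G11000 and AT3G19550 were more than 2-fold higher on day 1 already, as were 3.17% of all tested probe sets. By the fitted difference AT1G47610 (3.26-fold) and AT4G26280 (3.66-fold) were so by day 3, and AT1G02190 and AT5G47600 only on day 7. AT1G02190 fell just short of 2-fold on day 3, at 1.94-fold (log2 0.95). That day 3 value was log2 1.02 with the offset at 2.17, 1.13 with quantile normalization and 0.85 with the offset at 8.70, so its place depends on the processing. By this difference the description "late" was thus apt at most for AT1G02190 and AT5G47600. By the steroid signal alone AT4G26280 was late too. Its steroid day 3 minus steroid day 1 was log2 0.08, and its steroid day 7 minus steroid day 3 was log2 1.65. AT1G02190, AT4G26280 and AT5G47600 were chosen on day 7 alone and the others partly on earlier days, so the choice favoured this split.

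**Figure D1:**
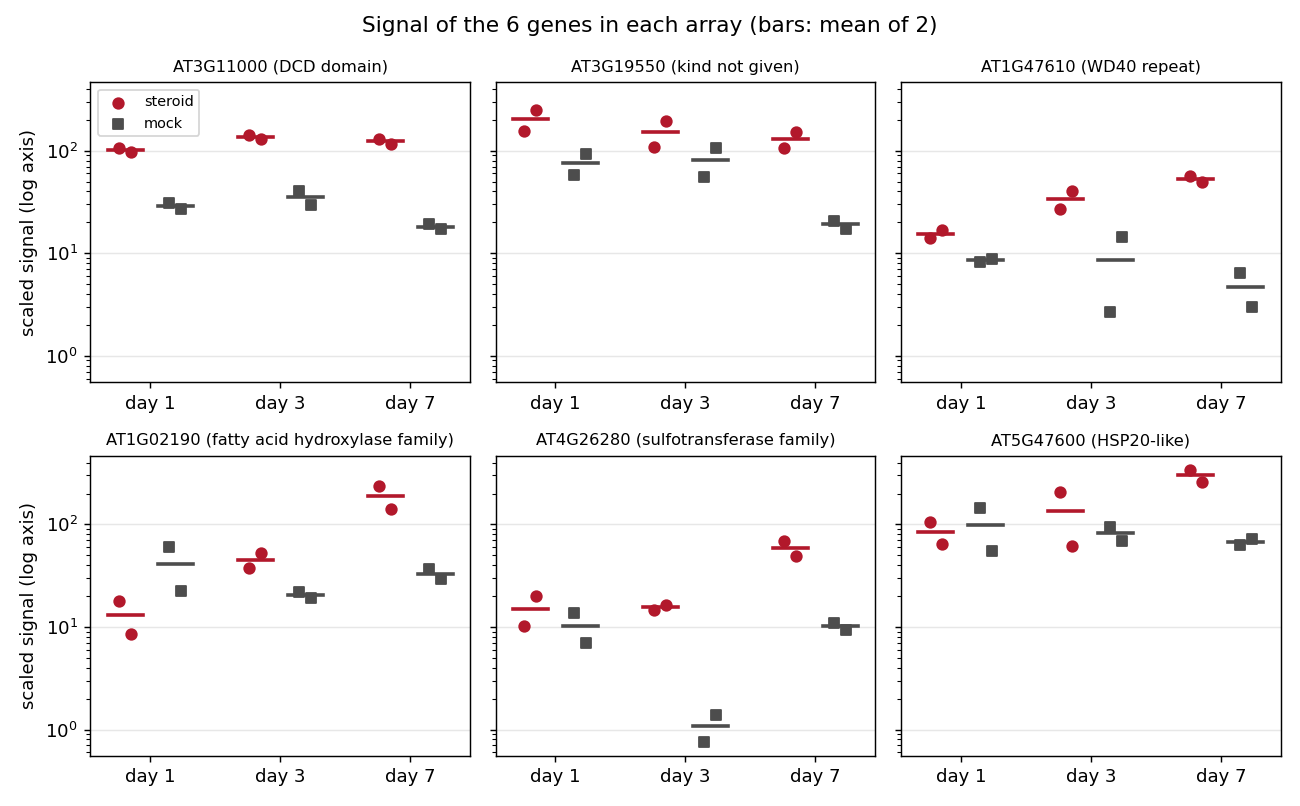
Scaled signal (log axis) of each of the 6 genes in every array, by day, with steroid arrays as circles left of mock arrays as squares and a bar at the mean of 2. AT3G11000 lies at or above 97.7 in all 6 steroid arrays and at or below 40.5 in all 6 mock arrays, and AT5G47600 separates the treatments on day 7 alone.

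A scaled signal is the deposited signal multiplied so that every array has a median of 24.8. The deposited medians ran from 16.1 to 20.8 on day 1, 20.1 to 32.2 on day 3 and 62.6 to 95.2 on day 7. Replicates were closer on day 7 (median residual SD of log2 signal 0.13, against 0.33 on day 1 and 0.32 on day 3). The 3' to 5' ratio of GAPDH, a sign of RNA quality, was 4.16 to 11.2 for day 1 arrays, 6.60 to 15.8 for day 3 arrays and 1.09 to 1.41 for day 7 arrays. That of ubiquitin was lower on day 7 as well, at 4.93 to 6.79, 3.77 to 6.07 and 1.61 to 1.86 on days 1, 3 and 7. That of actin overlapped between the days, at 3.996 to 8.98, 3.45 to 8.66 and 4.37 to 6.42. Scan dates followed the days too: the day 7 steroid and mock arrays were read on different dates and cannot be told apart from their scans, and no scan date held day 7 together with another day. The part of these array differences in what separates day 7 from the other days was not tested. Log2 differences below are steroid minus mock on log2(scaled signal + 4.35), which understates ratios of weak signals, with the standard error (SE) of a limma fit over all 12 arrays. Adjusted p-values are from that fit, with Benjamini-Hochberg adjustment over all 16511 probe sets. The labels call the 2 samples of a group independent and say no more of how they were grown, so p-values measure only the spread between these samples. The fit pools the spread of each probe set over all days. The SEs, intervals and p-values of days 1 and 3 therefore also draw on the mostly closer replicates of day 7.

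AT3G11000, the DCD-domain gene, was the most even of the 6. On day 1 its scaled signal was 107 and 97.7 in steroid tips, against 30.7 and 26.9 in mock tips. On day 3 it was 141 and 131 in steroid tips, against 40.5 and 29.4 in mock tips. On day 7 it was 130 and 116 in steroid tips, against 19.2 and 17.2 in mock tips. The lowest steroid array of any day thus read more than the highest mock array of any day. Log2 differences for days 1, 3 and 7 were 1.69, 1.85 and 2.50 (SE 0.22 each), or 3.23-fold, 3.61-fold and 5.65-fold. The gene had been singled out on these same differences, so no test is attached to them. The wider gap of day 7 came with a lower mock signal and not with a higher steroid signal, since the steroid mean of 123 on day 7 lay between the 102 of day 1 and the 136 of day 3.

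AT3G19550 was also high from day 1, but with wider replicates. Steroid tips read 157 and 251 on day 1, against 57.8 and 93.2 in mock tips. On day 3 the values were 109 and 195 in steroid tips, against 55.0 and 106 in mock tips, so the lower steroid array stood barely above the higher mock array. On day 7 they were 106 and 152 in steroid tips, against 20.7 and 17.4 in mock tips. Its log2 differences for days 1, 3 and 7 were 1.38, 0.89 and 2.49 (SE 0.37 each), or 2.61-fold, 1.86-fold and 5.60-fold. By mean signal the order of the groups was steroid day 1, steroid day 3, steroid day 7, mock day 3, mock day 1 and mock day 7. Each of the first 5 groups overlapped the next one down except the fifth, mock day 1, which did not overlap mock day 7. The day 7 gap was thus the largest of the 3 days although the steroid mean of 129 was the lowest of the 3 days.

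For these 2 genes the mock signal was lower on day 7 than earlier also by rank within the array, which needs no scaling. AT3G19550 exceeded 46.9% and 44.3% of the probe sets on the mock day 7 arrays, against 69.6% to 83.5% on the 4 earlier mock arrays. AT3G11000 exceeded 45.6% and 44.1% of them on mock day 7, against 62.1% and 53.7% on mock day 3 and 55.4% and 52.0% on mock day 1. In scaled values mock day 7 minus mock day 1 was log2 -1.74 for AT3G19550 and -0.56 for AT3G11000, and the median of all tested probe sets was -0.10. In unscaled values the signs turn, to 0.32 and 1.46, while the median of all tested probe sets moves to 2.01, so both genes still lie below that median. The mock day 7 arrays took part in choosing the genes, so no test is given.

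AT1G47610, the WD40-repeat gene, stepped up by day in steroid tips. Its scaled signal was 13.9 and 17.0 in steroid tips on day 1, against 8.16 and 8.82 in mock tips. On day 3 it was 27.1 and 40.3 in steroid tips, against 2.70 and 14.5 in mock tips. On day 7 it was 56.2 and 48.9 in steroid tips, against 6.38 and 3.02 in mock tips. The 3 steroid groups did not overlap one another, and steroid day 1 overlapped mock day 3. For days 1, 3 and 7 the log2 differences were 0.62, 1.70 and 2.68 (SE 0.46 each), or 1.54-fold, 3.26-fold and 6.39-fold. The day 3 value rests on mock arrays that differ from each other, and it was 1.00 without the first mock replicate and 2.41 without the second. The probe set was dim, exceeding its array's 40th percentile on 5 of 12 arrays, all of them steroid arrays (1 of day 1, 2 of day 3 and 2 of day 7), so it passed the filter through the treatment in which it is high. Steroid day 3 minus steroid day 1 was log2 0.92 (SE 0.46), given without a test since these arrays took part in the choice, with both day 3 arrays above both day 1 arrays, as for 11.2% of all tested probe sets.

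**Figure D2:**
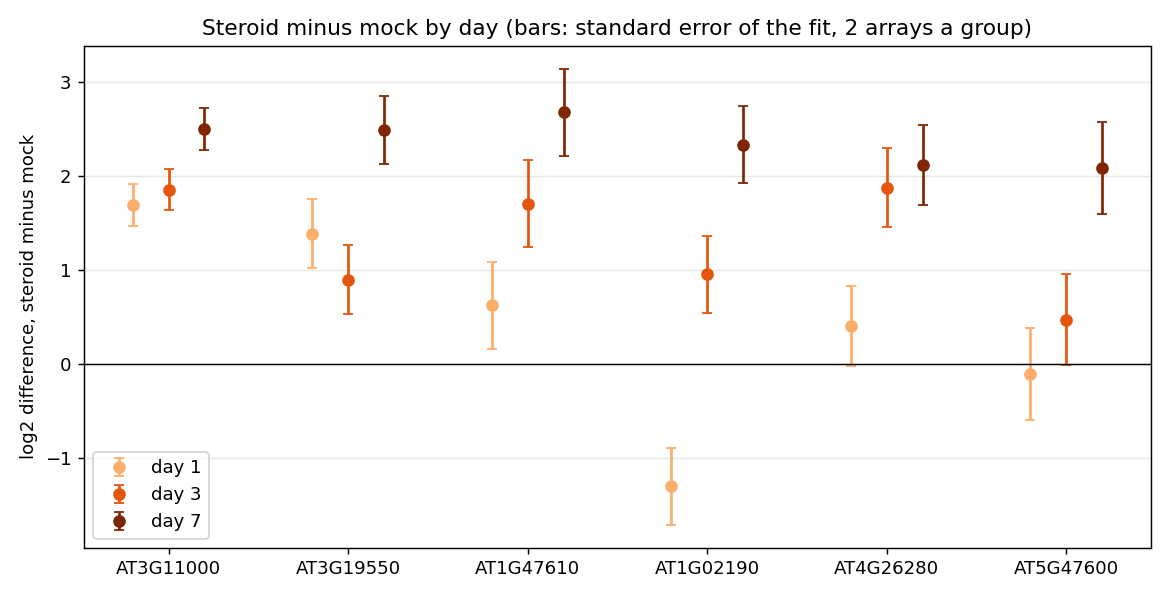
Log2 difference of steroid minus mock for each gene on days 1, 3 and 7, with the standard error of the 12-array fit. AT3G11000 stands at 1.69, 1.85 and 2.50, AT1G47610 climbs over 0.62, 1.70 and 2.68, and AT1G02190 goes from -1.30 on day 1 to 2.33 on day 7.

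The next 3 genes were chosen on day 7 arrays alone. The day 1 and day 3 differences were tested for AT1G02190 and AT5G47600, and those of AT4G26280 are given as a description because of how it passed the filter. AT1G02190, the CER1 relative, was the only one of the 6 with the steroid arrays below the mock arrays on a day. On day 1 its scaled signal was 17.8 and 8.44 in steroid tips, against 60.2 and 22.3 in mock tips (log2 -1.30, SE 0.41, limma adjusted p = 0.457). On day 3 it was 37.2 and 52.1 in steroid tips, against 22.1 and 19.3 in mock tips (log2 0.95, SE 0.41, limma adjusted p = 0.784). On day 7 it was 235 and 143 in steroid tips, against 36.7 and 29.6 in mock tips (log2 2.33, 5.03-fold). The 2 groups did not overlap on any day, yet neither the day 1 nor the day 3 difference passed the test. The day 1 value rests much on the first mock replicate. Within the scan date shared by the other 3 arrays it was -0.66, whereas without the second mock replicate it was -1.94 with a limma adjusted p = 0.0479, and over all alternatives the adjusted p ran from 0.0479 to 1.00. In the steroid arm, day 3 minus day 1 was log2 1.52 (SE 0.41, limma adjusted p = 0.857), and 1.74 between the arrays read on one scan date. The change of the steroid effect itself, day 3 minus day 1, was log2 2.25 (SE 0.58, limma adjusted p = 0.704), the largest of the 6 genes.

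AT4G26280, the sulfotransferase-family gene, had weak signals before day 7. On day 1 they were 10.2 and 19.9 in steroid tips, against 13.6 and 6.92 in mock tips, and the groups overlapped (log2 0.40, SE 0.42). On day 3 they were 14.5 and 16.5 in steroid tips, against 0.755 and 1.40 in mock tips (log2 1.87, SE 0.42). On day 7 they were 68.2 and 49.3 in steroid tips, against 10.9 and 9.30 in mock tips (log2 2.11, 4.33-fold). The day 3 gap came with a mock signal that exceeded 2.50% and 8.41% of the probe sets of its arrays, not with a higher steroid signal: steroid day 3 minus steroid day 1 was log2 0.08 (SE 0.42). Mock day 3 minus mock day 1 was log2 -1.39 (SE 0.42). The day 3 difference depended on the offset, at 2.45 with the offset at 2.17 and 1.31 with the offset at 8.70. The probe set exceeded its array's 40th percentile on 3 of 12 arrays, all of them steroid arrays (1 of day 1 and 2 of day 7), so it too passed the filter through the treatment in which it is high.

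AT5G47600, the HSP20-like gene, separated the treatments only on day 7. On day 1 its scaled signal was 105 and 64.8 in steroid tips, against 143 and 55.1 in mock tips (log2 -0.11, SE 0.49, limma adjusted p = 0.975). On day 3 it was 209 and 61.8 in steroid tips, against 95.1 and 69.4 in mock tips (log2 0.47, SE 0.49, limma adjusted p = 0.849). On day 7 it was 341 and 261 in steroid tips, against 62.5 and 72.2 in mock tips (log2 2.08, 4.23-fold). Its 95% interval of the log2 difference ran from -1.16 to 0.95 on day 1 and from -0.58 to 1.53 on day 3. A 2-fold lower signal on day 1 and a 2-fold higher signal on day 3 are thus not excluded. The sign on both days hung on single arrays. The day 1 value was 0.55 without the first mock replicate and 0.22 without the second steroid replicate, and the day 3 value was -0.37 without the first steroid replicate and 1.31 without the second. Except for steroid day 7, each group overlapped the next one down in mean signal.

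Steroid tips of day 7 stood above those of day 3 by log2 1.95 for AT1G02190, 1.65 for AT4G26280, 1.35 for AT5G47600 and 0.60 for AT1G47610, while the difference was -0.14 for AT3G11000 and -0.20 for AT3G19550, with a median of -0.06 over all tested probe sets. With quantile normalization these values were 1.83, 1.88, 1.18, 0.51, -0.30 and -0.40, and the median was -0.10. Without scaling AT3G11000 was at 1.34 and AT3G19550 at 1.29, against a median of 1.35, and the other 4 lay above that median. Between days 1 and 3, in the steroid arm, in the mock arm and in the difference of the steroid effects, limma called 0 of the 16511 probe sets each time (0% of all, with 834, 1305 and 906 at an unadjusted p under 0.05). On days 1 and 3 themselves, limma called 3 probe sets each, all higher, or 0.0182% of those tested, and neither AT1G02190 nor AT5G47600 was among them. AT3G11000, chosen on these differences, is itself among the 3 on both days. The day 7 calls include AT3G11000 and AT3G19550. Such calls are no test of genes chosen on the same differences.

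**Figure D3:**
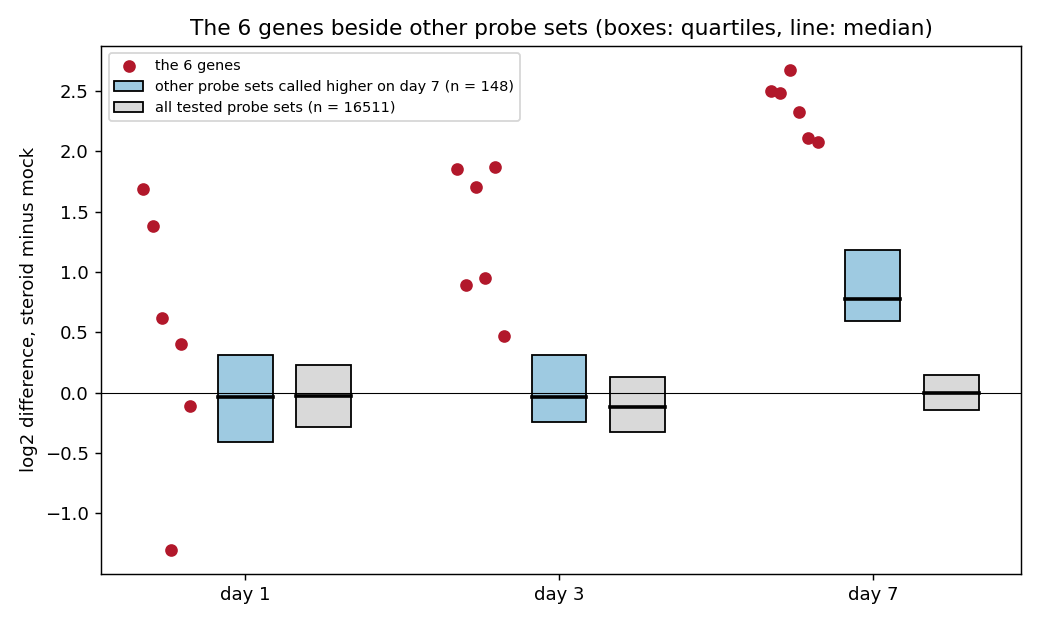
Log2 difference of steroid minus mock on each day for the 6 genes (points, in the order named on the plot of differences by day), for the 148 other probe sets called higher on day 7 in a fit of the day 7 arrays, and for all 16511 tested probe sets (boxes: quartiles, line: median). On day 3 all 6 genes lie above 0.4 (AT5G47600 at 0.47, SE 0.49), while the 148 have a median of -0.04. The 6 were chosen for large day 7 differences and 3 of them partly on earlier days, so this is a description.

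The other probe sets called higher on day 7 had medians near 0 on the earlier days. In a fit of the 4 day 7 arrays 0.933% of the tested probe sets were called higher and 0.684% lower. Of those called higher, 148 are not among the 6. The 6 genes had median log2 differences of 0.51, 1.33 and 2.41 on days 1, 3 and 7. The 148 had medians of -0.04, -0.04 and 0.77 on these days, with 71 of 148 above 0 on day 1 and 66 of 148 on day 3. Over all tested probe sets the medians were -0.03, -0.12 and 0.00086. These are descriptions, since the 6 genes were picked for large day 7 differences and 3 of them partly on earlier days.

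The genes most like each of the 6 were taken by Pearson's r over the 12 arrays after each day's mean was removed, among 9226 tested probe sets with a single gene name. The arrays share treatment, so these values describe likeness and carry no p. The treatment differences that chose the 6 genes enter r. High r among the 6, or with other genes far above mock on day 7 such as REM22, is thus partly built in. REM22, a B3-domain gene of the reproductive meristem group, was the closest to AT1G47610 (r = 0.965) and among the 3 closest to AT4G26280 (r = 0.922) and AT3G19550 (r = 0.869). Its log2 differences were 0.67, 1.88 and 2.98 on days 1, 3 and 7. After it, AT1G47610 was closest to AT2G35310, listed with the synonym REM23 (r = 0.948), and to AT3G04960 (r = 0.917), which stood at 1.49 and 1.65 on day 7. AT3G11000 was closest to AT1G31310 (r = 0.920), AT5G01075 (r = 0.916) and AT5G52710 (r = 0.912), whose day 7 differences were 0.76, 0.56 and 0.69. AT5G52710 (r = 0.932) was also near AT4G26280, after AT1G79060 (r = 0.933), at 0.76 on day 7.

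AT3G19550 was closest to AT5G03370 (r = 0.869) and, after REM22, to AT2G20060 (r = 0.862), although these stood at only 0.48 and 0.29 on day 7. AT1G02190 was closest to AT1G14260 (r = 0.967), with log2 differences of -0.38, 0.31 and 0.60 on days 1, 3 and 7, then to AT3G44410 (r = 0.904) and AT1G64580 (r = 0.884). AT5G47600 was closest to AT3G06220 (r = 0.944), AT5G17160 (r = 0.923) and GLR3.5, a glutamate receptor-like channel gene (r = 0.888), at 0.54, 0.55 and 0.48 on day 7. Among the 6 themselves r was highest between AT1G47610 and AT4G26280 (0.925) and lowest between AT3G19550 and AT1G02190 (0.418).

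Relatives of the 6 were looked up by locus. Of 74 loci in 5 lists (cuticular wax and alkane genes, small heat shock genes, sulfotransferases, DCD-domain genes and WD40 genes close to AT1G47610), 24 had a probe set with a single gene name and 11 were tested. On day 7 limma called 0.0545% of all tested probe sets and 0 of these 11. The fit of the day 7 arrays also called 0 of the 11, against 0.933% higher and 0.684% lower of all. The day 7 differences of the 11 ran from log2 -0.65 to 0.52, with a median of -0.13, against a median of 0.00086 over all tested probe sets. The 4 tested DCD-domain genes, AT5G42050, AT2G32910, AT3G27090 and AT5G01660, stood at 0.13, -0.13, -0.06 and -0.26 on day 7. The 3 tested small heat shock genes, AT4G21870, AT1G54050 and AT2G19310, stood at -0.65, 0.52 and -0.22. The 2 sulfotransferase genes AT5G43690 and AT2G03750 stood at -0.34 and -0.08, the wax ester synthase gene WSD1 at -0.26 and the WD40 gene AT1G49450 at -0.04. On days 1 and 3 limma called 0 of the 11 as well, against 0.0182% of all tested probe sets on each day. The medians of the 11 were -0.01 and -0.15. At such shares 0 of 11 says little about the relatives.

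The closest genes on the chromosome were looked at as well. Of the 24 protein-coding genes that lie up to 2 places to either side of the 6 (by the TAIR10.1 annotation), 8 had a named probe set and 5 were tested. By limma 0 of these 5 were called on day 1, day 3 or day 7, against 0.0182%, 0.0182% and 0.0545% of all tested probe sets. The fit of the day 7 arrays called 0 too, against 0.933% higher and 0.684% lower of all. At such shares 0 of 5 says little about the neighbours. Their day 7 differences ran from log2 -0.47 for AT5G47610, beside AT5G47600, to 0.20 for AT1G47640, near AT1G47610. AT1G02180, beside AT1G02190, stood at 0.14 with scaled means of 93.1 in steroid and 84.0 in mock tips.

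Markers of the tissue and of the organs it could form were mostly without a name here. Of 10 meristem markers 3 were named, and their summed scaled signal on day 7 was 130 to 134 in steroid and 159 to 177 in mock tips. Of these UFO, a floral meristem gene, did not pass the filter, at a day 7 mean of 3.75 in steroid and 14.1 in mock tips. CLV3, made by stem cells, passed at a day 7 mean of 13.4 in steroid and 9.66 in mock tips. Most of the sum was AGL24, a MADS-box gene of the inflorescence meristem, at a mean of 115 in steroid and 144 in mock tips. Of 7 tapetum and pollen markers 3 were named, with sums of 70.6 to 70.9 in steroid and 47.2 to 75.7 in mock tips. EMS1, the 1 that passed the filter, made up most of this, at a mean of 68.2 in steroid and 57.6 in mock tips. The tapetum genes AT5G07230 and AMS were near 0 (means 0.606 and 1.91 in steroid, 2.36 and 1.46 in mock tips). Of 7 carpel markers the 2 named, SPT and ALC, summed to 511 to 608 in steroid and 453 to 481 in mock tips. The 2 named of 4 leaf markers summed to 853 to 942 in steroid and 943 to 948 in mock tips. The leaf sum was thus slightly lower and the carpel sum higher in steroid tips on day 7. The lower meristem sum was mainly that of AGL24, with the UFO mean lower as well and the CLV3 mean the other way. Limma called none of the tested markers on day 7, against 0.0545% of all tested probe sets. The log2 differences were -0.10 and -0.05 for the leaf genes RCA and LHCB4.1, 0.20 and 0.26 for SPT and ALC, and 0.27 for EMS1. The part of these differences in the values of the 6 genes was not tested. In whole tips, more cells of a type and more RNA per cell cannot be told apart.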

How the data were processed

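Inflorescence tips were profiled on ATH1 arrays, 2 samples in each of 6 groups. The authors deposited a linear signal intensity for each probe set of each array. The submitters' processing notes name MAS5, and its version and scaling target are not given in the sources used here. Scan dates came from the deposited array files. Besides 64 controls there were 22746 probe sets and 5 values of 0. Each array was multiplied to a common median of 24.8, and 4.35, the median over arrays of the 20th percentile, was added before log2. A probe set was tested if at least 2 arrays exceeded their own 40th percentile. Names came from the platform annotation (13513 with a single symbol, 503 with several, 8730 with none), of which 13436 matched the RefSeq table of TAIR10.1 by gene identifier.

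All 12 arrays entered one limma 3.58.1 fit in R 4.3.3 (6 group means, 6 residual and 6.89 prior degrees of freedom, variance trend), two-sided, with a threshold of 0.05 on the Benjamini-Hochberg adjusted p. The fit was tested on simulated data. With 2 arrays a group, exact permutation reaches no p under 0.333 and was not used. The number of arrays limits the precision.

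The 6 genes are always named, beside the 3 named probe sets most like each and the relatives with the largest day 7 differences. The genes, the lists and the tests were chosen with earlier results of these data known. Relatives by protein likeness and sequences were not used here. Scaling, offset, filter, variance trend, the arrays in the fit, scan and replicate blocks and leaving out each array were varied. Their use on the differences between days 1 and 3 of the single genes was added after seeing the data.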

Additional observations from a re-analysis of the deposited data

Results flagged for a closer look

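AT1G02190 drew attention because its steroid arrays all lay below the mock arrays on day 1 (log2 -1.30) and all above them on day 3 (log2 0.95) and day 7 (log2 2.33). The change from day 1 to day 3 was tested and did not pass (log2 2.25, limma adjusted p = 0.704, from 0.0780 to 1.00 over the alternatives, with the sign kept under all 23). Leaving out 1 array could not turn this sign, since the groups did not overlap on day 1 or day 3. The change to day 7 was not tested, since day 7 chose the gene. The first mock array of day 1 read 60.2 and was the only one of its scan date; without it the day 1 difference was -0.66.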

How the results depend on the processing

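The day 7 differences of all 6 genes stayed positive under all 22 alternatives that gave a value, from log2 1.83 for AT4G26280 and AT5G47600 to 3.32 for AT1G47610. The genes were chosen for this difference and their day 7 arrays did not overlap. Leaving out 1 array or changing the offset thus could not turn a sign. Filter, variance trend, replicate block and a fit of day 7 alone leave these values unchanged. The kept sign is therefore no support for the differences. Day 7 has no value with the scan as a block, since scan and treatment coincide there. Day 1 calls by limma, 3 as reported, were 0 with quantile normalization, without the filter, without the variance trend, with scan as a block and in a fit of the day 1 arrays (1410, 1903, 1363, 1765 and 517 at an unadjusted p under 0.05). Day 3 calls, also 3, were 1 without the filter or with scan as a block and 0 without the trend or in a fit of the day 3 arrays (1070 and 469 at an unadjusted p under 0.05). Day 7 calls, 9 as reported, were 15 without scaling or with the offset doubled, 5 without the trend and 267 in the fit of the day 7 arrays. Mock day 3 minus day 1 gave 6 without scaling, against 0, and steroid day 3 minus day 1 gave 16 with scan as a block, against 0. Leaving out 1 array gave 0 to 168 calls on day 1 (168 without mock replicate 2, 6 without mock replicate 1, 1 without steroid replicate 1 or day 3 steroid replicate 1, 0 without steroid replicate 2 or any day 7 array). It gave 0 to 11 on day 3 (11 without steroid replicate 1, 1 without steroid replicate 2, 0 without mock replicate 2 or either day 7 steroid array) and 3 to 12 on day 7 (3 or 4 without any day 7 array). For steroid day 3 minus day 1 it gave 0 to 10 (10 without day 3 steroid replicate 1, 3 without day 1 steroid replicate 1), for the mock arm 0 to 133 and for the difference of effects 0 to 7, both highest without day 1 mock replicate 2. The calls reported for days 1 and 3 were all higher, but the direction changed under some alternatives. The 16 with scan as a block were all lower. Day 3 calls without day 3 steroid replicate 1 were mostly lower. Day 1 calls without day 1 mock replicate 2 went in both directions. The causes were not tested.

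Signs turned only for values of single genes that had not been called. For AT5G47600 these were steroid minus mock on day 1 (0.55 with scan as a block, -0.76 to 0.55 without 1 array, 0.22 without steroid replicate 2) and on day 3 (-0.37 to 1.31 without 1 array), steroid day 3 minus day 1 (-0.39 with scan as a block, -0.39 to 1.29 without 1 array), the mock arm (0.28 without scaling, -0.79 to 0.53 without 1 array, 0.09 without day 3 mock replicate 2) and the difference of effects (-0.27 to 1.42, -0.08 without day 1 mock replicate 1). For AT3G19550 they were steroid day 3 minus day 1 (0.0045 without scaling) and the mock arm (-0.39 to 0.51 without 1 array, -0.27 without day 1 mock replicate 1), for AT1G47610 the mock arm (0.13 without scaling, 0.31 with scan as a block, -0.87 to 0.55 without 1 array), for AT1G02190 the mock arm (0.35 with scan as a block), for AT4G26280 steroid day 3 minus day 1 (-0.29 to 0.45 without 1 array) and for AT3G11000 the difference of effects (-0.043 to 0.37 without 1 array).

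Samples of a group share replicate numbers with those of the other treatment, but the deviations of same-numbered arrays correlated at 0.124, 0.0996 and 0.0883 on days 1, 3 and 7, so the numbers were not taken as pairs. With the replicate block limma called 2, 3 and 8 probe sets on days 1, 3 and 7, and 0 in each of the comparisons between days 1 and 3. The weak signals of AT4G26280 and AT1G47610 before day 7 limit what can be said of their folds.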
